A study of Sminthopsis crassicaudata with 9 samples.

Results

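The HOX genes of the newborn dunnart face were examined as the gene models whose symbol is HOX, a cluster letter and a paralog number. Of 21703 gene models, 29 were members, with 11 in the HOXA cluster, 9 in HOXC and 9 in HOXD. The HOXB cluster was not analysed here. By paralog number, 5 members belonged to groups 1 to 3, 10 to groups 4 to 8 and 14 to groups 9 to 13. On the dunnart assembly of the study, the HOXA members lay on scaffold00009_pilon_pilon, the HOXC members on scaffold00109_pilon_pilon from 1322180 to 1462150, and the HOXD members on scaffold00002_pilon_pilon from 25407430 to 25515222.

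The tissue was the facial prominences of fat-tailed dunnart (Sminthopsis crassicaudata) pouch young less than 24 h after birth, dissected free of tongue, neural tube and eye primordia. RNA came from 3 libraries (FP1, FP2 and FP3), each a pool of 2 young. ChIP-seq of H3K4me3, which marks promoters, and H3K27ac, found at promoters and enhancers in use, was done in 2 replicates, each called against the input DNA of the same pool of 26 or 27 heads. There was 1 tissue and 1 age, so no condition was set against another, and HOX values stand beside those of all gene models. All 10 annotated genes of a list of facial mesenchyme markers exceeded 1 TPM, a transcript level scaled by gene length and library total, in all 3 libraries, with TWIST1 the highest at 287 ± 70.8 TPM (SD, n = 3). Above 1 TPM in all 3 libraries were 56.5% of all gene models and 75.3% of models with a gene symbol.

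HOX genes encode homeodomain transcription factors that give cells their position along the head-to-tail axis. They lie in clusters in the order in which they are used, so that low paralog numbers act in the hindbrain and pharyngeal arches and high numbers in the trunk, limbs and genital region. The neural crest that builds most of the face is known in mouse and chick to come from head regions without HOX expression, and in those species Polycomb complexes keep unused HOX genes silent.

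Most HOX transcripts were scarce or undetected in the face. Only 3 of 29 members exceeded 1 TPM in all 3 libraries, HOXA2 and HOXD8 among them, against 56.5% of all gene models and 75.3% of models with a gene symbol. Another 15 of 29 had 0 counts in all 3 libraries, against 22.5% of all gene models and 6.79% of those with a symbol. The median of the members' mean TPM was 0, against 3.83 for all gene models and 12.8 for models with a symbol. In bulk tissue, few cells with a transcript and little of it per cell cannot be told apart. Total counts were 17419099 in FP1, 16358621 in FP2 and 16096971 in FP3, of which HOX members took 683, 588 and 481 counts.

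HOXA2, which in mouse gives the second pharyngeal arch its identity, had 1.77, 1.64 and 1.45 TPM in FP1, FP2 and FP3, a mean of 1.62 ± 0.161 (SD, n = 3). Its level was low and even across libraries. HOXA3, needed in mouse for pharyngeal organs such as the thymus, had 0.393, 1.82 and 0.350 TPM, from 5, 19 and 4 counts, so that FP2 alone exceeded 1 TPM.

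HOXD8, of the middle of its cluster, had 5.60, 3.35 and 4.77 TPM in FP1, FP2 and FP3 and a mean of 4.58 ± 1.14 (SD, n = 3), above that of 51.6% of gene models. It exceeded HOXA2 in every library. From HOXD8 downward, every member with counts overlapped its neighbour in the order of means over the 3 libraries, so that order is not resolved between neighbours.

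HOXD1, which in mouse acts in pain-sensing neurons, was uneven. It had 5.09 TPM in FP1, 2.65 in FP2 and 0.374 in FP3, from 91, 39 and 6 counts. Its mean of 2.70 carried an SD of 2.36 (n = 3), and without FP3 the number of members above 1 TPM in every library went up to 4 by the addition of HOXD1. HOXD9 showed a like spread, with 18, 4 and 2 counts, and HOXD3 had 18, 4 and 7. The HOXD members other than HOXD8 summed to 141 counts in FP1, 56 in FP2 and 19 in FP3, so FP1 was highest and FP3 lowest for these genes together. HOXD8 itself had 136, 67 and 104 counts, with FP2 lowest.

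Some genes outside the clusters had the library order of HOXD1, with FP1 highest and FP3 lowest. PAX6, a marker of the neural tube and eye, had 199, 87 and 27 counts in FP1, FP2 and FP3. Chosen after their values were seen, the neural factor SOX1 had 20, 7 and 0 counts, and MEIS3, a homeobox partner of HOX proteins, had 522, 285 and 119. The whole hindbrain and neural tube list had another order. Its summed level was 75.1 TPM in FP1, 134 in FP2 and 133 in FP3. Of its 14 annotated genes, 3 exceeded 1 TPM in every library, among them ATOH1 and, chosen after its values were seen, EGR2 (1.33 ± 0.406 TPM; SD, n = 3), a gene of hindbrain segments and of glia along nerves. NKX2-2 was the only annotated gene of this list with 0 counts in all libraries. A part of neural tissue in the HOXD levels was not tested.

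In the high paralog groups, HOXC13 was the only member with counts at a steady level. HOXC13, which acts in hair and nail formation in mouse and human, had 10, 11 and 9 counts in FP1, FP2 and FP3, or 0.610, 0.816 and 0.612 TPM. No other member of the HOXC cluster had more than 2 counts in any library. HOXD9 averaged 0.461 ± 0.466 TPM and HOXD4 0.173 ± 0.0825 TPM (SD, n = 3 each). HOXD4 rests on a gene model that spans 31.5 kb and shares 150 exon bases with MIR10B on the same strand, so its count is uncertain. The remaining members with any count had 1 to 4 in all: HOXA7 with 1, 3 and 0, HOXD10 with 1, 1 and 0, HOXC5 with 2 in FP1, HOXA5 with 2 in FP2 and HOXA10 with 1 in FP2.

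**Figure D1:**
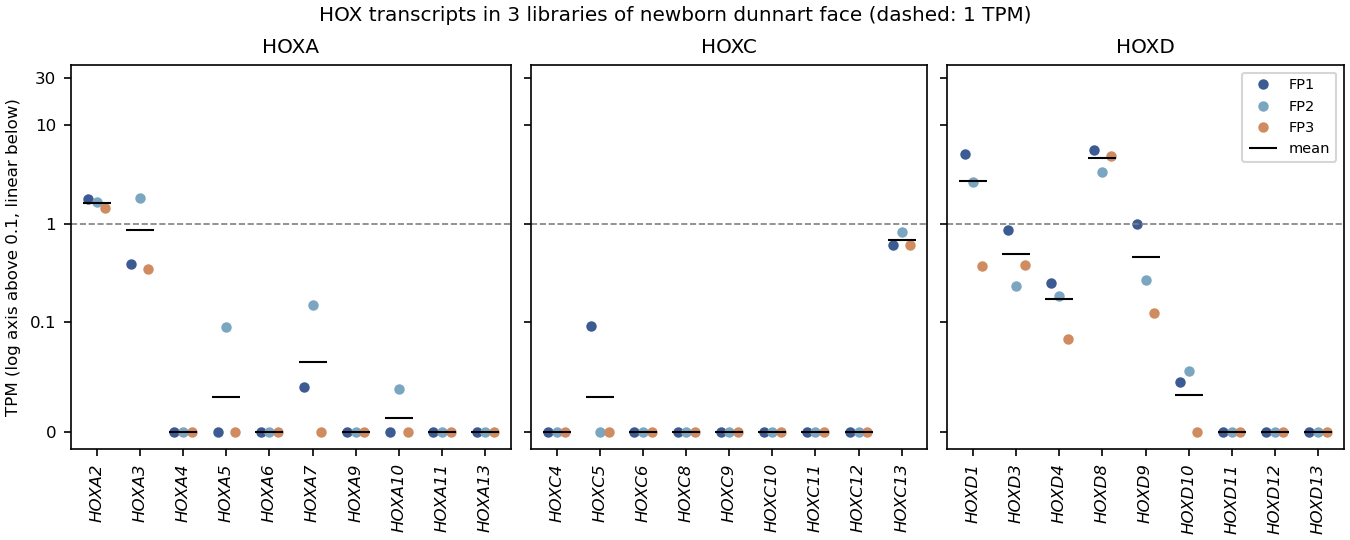
TPM of the HOX genes reported singly in libraries FP1, FP2 and FP3 (dots) with their mean (black line), by cluster and paralog number, on an axis that is logarithmic above 0.1 TPM and linear below. HOXD8 averages 4.58 TPM, HOXD1 spreads from 0.374 to 5.09 TPM, and 15 genes sit at 0 in all libraries.

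The 15 genes without counts were HOXA4, HOXA6, HOXA9, HOXA11 and HOXA13, HOXC4, HOXC6, HOXC8, HOXC9, HOXC10, HOXC11 and HOXC12, and HOXD11, HOXD12 and HOXD13. In mouse several of these pattern the trunk skeleton and, as HOXA11, HOXA13 and HOXD13 do, the limbs. A count of 0 allows up to 3 counts, which set an upper limit per library between 0.0305 TPM for HOXC4 and 0.50 TPM for HOXD12, where the limit was highest. These limits cover counting error only. The low limit of HOXC4 rests on a gene model of 13195 exon bases over 27.0 kb, against 804 exon bases for HOXD12. By paralog group, 0 of 5 members of groups 1 to 3 lacked counts, against 5 of 10 in groups 4 to 8 and 10 of 14 in groups 9 to 13. The number above 1 TPM in all libraries was 2 of 5, 1 of 10 and 0 of 14 in the same groups.

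Genes without transcripts were marked all the same. All 29 members had an H3K4me3 peak in both replicates with an edge within 1 kb of the transcription start site (TSS), against 67.7% of all gene models. For H3K27ac it was 28 of 29, against 71.5%, and for both marks together 28 of 29, against 66.3%. The 15 members without counts all carried both marks. Of the 962 gene models that have a symbol and 0 counts, 49.2% had H3K4me3, 50.7% H3K27ac and 42.1% both. Within 1 kb is a loose placement, since an H3K27ac peak covered the TSS itself in 17 of 29 members, against 64.1% of all models, and an H3K4me3 peak in 25 of 29, against 61.6%. The share of HOX members was above that of all models by either placement for H3K4me3, and by the wider one alone for H3K27ac. The exception within 1 kb was HOXD10, where a single H3K27ac peak of 3.71-fold enrichment was present in replicate 1 and none in replicate 2.

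The marks were weak. At the TSS the median H3K4me3 enrichment over input was 8.96-fold for the members (lowest 5.38, highest 27.4), against 43.4-fold for all gene models with such a peak. For H3K27ac it was 5.18-fold (3.36 to 17.4), against 23.4-fold. Members without counts had medians of 8.68-fold for H3K4me3 and 4.84-fold for H3K27ac, against 9.56-fold and 6.43-fold for marked models with a symbol and 0 counts, so they lay slightly below other marked genes without counts. The highest H3K4me3 value of any member, at HOXD8, exceeded 33.9% of the marked gene models, and the highest H3K27ac value, at HOXA2, exceeded 40.5%.

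H3K27ac was highest at HOXA2, HOXD8 and HOXD1 among the members named here, while some other members with counts in every library had less than some without counts. HOXD3 had a mean of 4.15-fold, HOXD4 5.02-fold and HOXC13 5.01-fold, against 6.22-fold at HOXA13 and 6.10-fold at HOXD13, both with 0 counts. HOXA2 had 17.7-fold in replicate 1 and 17.1-fold in replicate 2, above every other HOX member in both replicates. HOXA3 had 8.0-fold and 5.83-fold, and no HOXA member of groups 4 to 13 passed 7.06-fold. In HOXD, HOXD8 had 11.7-fold and 10.3-fold and HOXD1 8.04-fold and 10.8-fold, and the remaining members lay at or below 7.59-fold. In HOXC no member passed 6.46-fold in either replicate. The group medians were 9.41-fold in groups 1 to 3, 5.16-fold in groups 4 to 8 and 5.01-fold in groups 9 to 13.

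H3K4me3 was also high at some genes without counts. HOXA13, a regulator of digit and genital development with 0 counts, had 13.5-fold in replicate 1 and 27.8-fold in replicate 2, a mean of 20.7-fold. HOXA2, which had transcripts in all libraries, had 14.1-fold and 19.9-fold, within the range of HOXA13. HOXD13, also with 0 counts and also a digit regulator, had 14.7-fold and 16.3-fold. H3K27ac at these genes stayed lower, with 7.06-fold and 5.37-fold at HOXA13 and 4.62-fold and 7.59-fold at HOXD13. HOXC13 had the highest H3K4me3 of its cluster, with 12.5-fold and 14.7-fold, above the 9.95-fold that no other HOXC member exceeded in either replicate. Its H3K27ac was 4.79-fold in replicate 1, below the 6.46-fold of HOXC6, and 5.24-fold in replicate 2, where HOXC4 followed with 4.97-fold. The replicates were far apart for some members, as for HOXD1 (17-fold and 27.0-fold), HOXD3 (3.21-fold and 8.78-fold) and HOXC9 (9.35-fold and 4.15-fold).

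**Figure D2:**
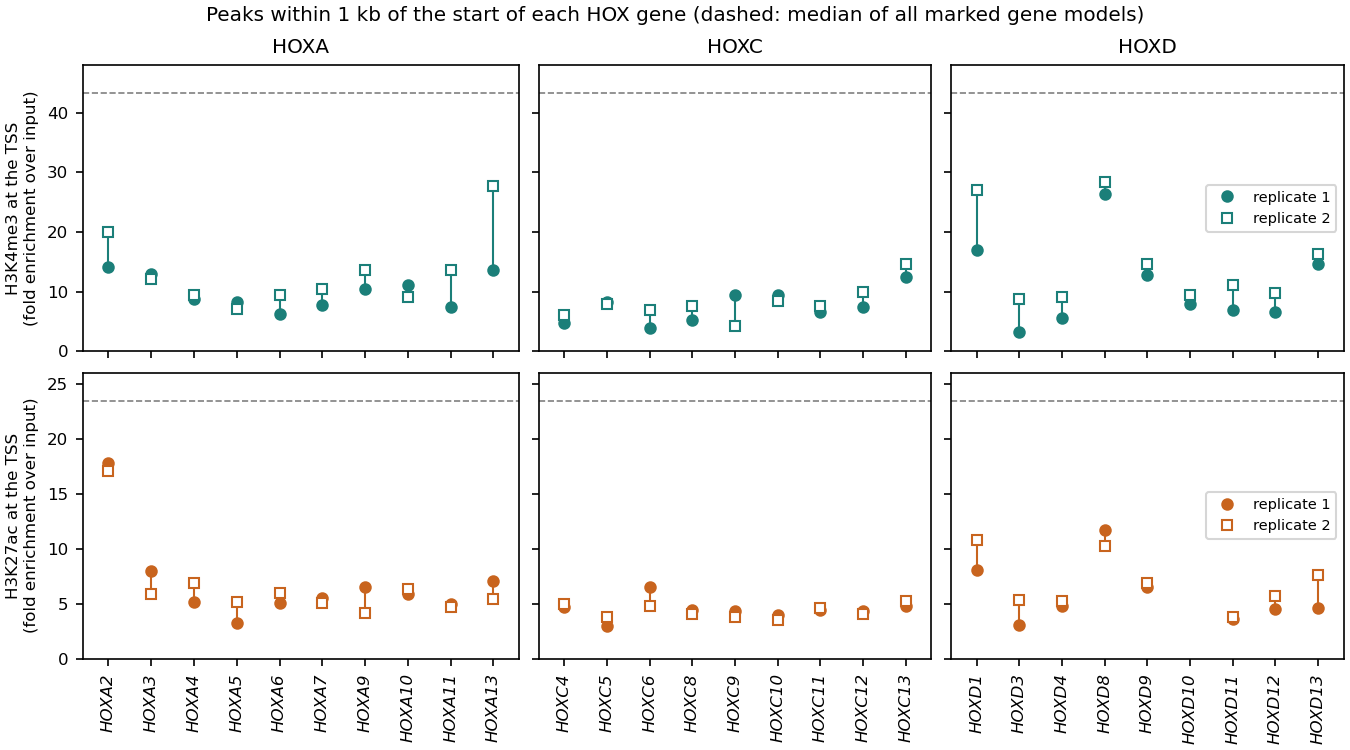
Fold enrichment over input of the H3K4me3 peak (top) and H3K27ac peak (bottom) within 1 kb of the TSS of the HOX genes reported singly, in replicate 1 (filled) and replicate 2 (open), with the median of all marked gene models dashed (43.4 and 23.4). Every value shown lies below the dashed line, and the higher H3K27ac values are those of HOXA2, HOXD1 and HOXD8.

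H3K4me3 was widespread around HOX genes, those without counts included. Bases under H3K4me3 peaks in both replicates made up a median of 49.4% of the 5 kb on either side of the members' TSS, against 19.6% for all gene models and 24.5% for models with a symbol. For the 15 members without counts the median was 49.4%, against 6.10% for models with a symbol and 0 counts. Only 49.2% of those models had an H3K4me3 peak within 1 kb of the TSS. Some HOX starts lie close together, as HOXA5 and HOXA6 at 45.2 and 49.7 kb from the HOXA2 start. Their stretches overlap and hold each other's peaks, so the members' values are not separate measures. The single peaks were of ordinary length, with a median of 2703 bp against 2498 bp for all models. For H3K27ac the median covered share was 21.4%, between the 19.5% of all gene models and the 24.0% of models with a symbol, and peaks were shorter, with a median of 1302 bp against 2262.5 bp. HOXA10 had the longest H3K4me3 peak at a member's TSS, 7997 bp, with 1 count in all. HOXD3 had the shortest, 489 bp.

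Across the clusters the 2 marks formed long tracts. From first to last member, H3K4me3 peaks of both replicates covered 62.9% of HOXA, 39.5% of HOXC and 26.9% of HOXD, against 4.36% of all scaffolds. H3K27ac covered 45.6% of HOXA, 13.5% of HOXC and 14.2% of HOXD, against 5.94%. HOXA thus had the widest coverage of both marks. Such coverage occurs elsewhere as well. Of 28113 tiles of 100 kb, 95 tiles without a HOX member had at least the H3K4me3 coverage of HOXA, 500 that of HOXC and 1017 that of HOXD. For H3K27ac the numbers were 739, 3428 and 3308.

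**Figure D3:**
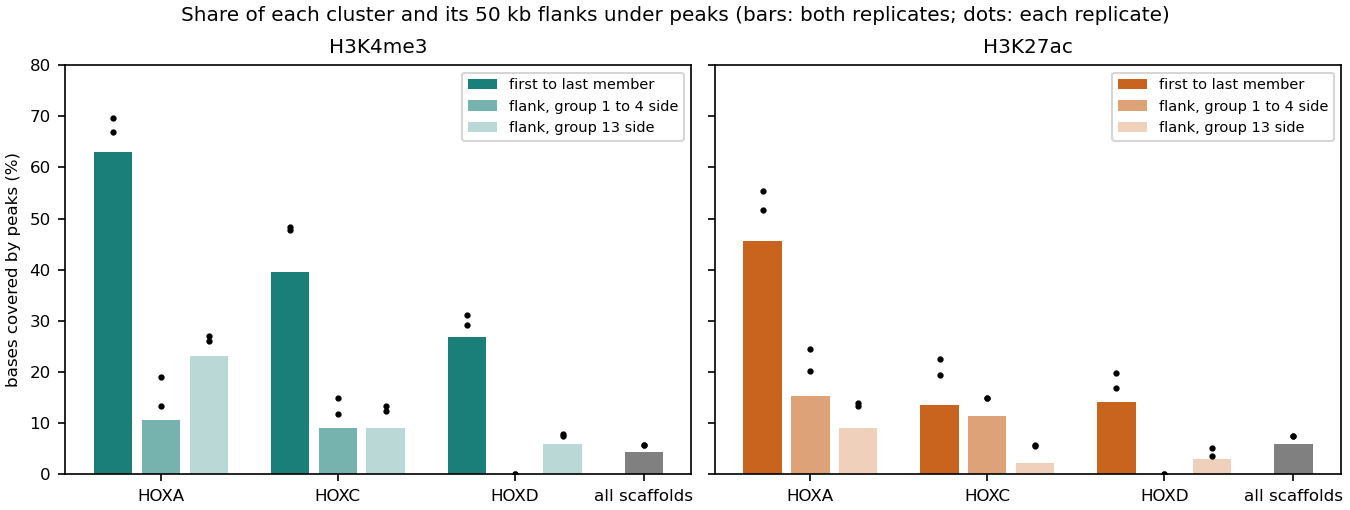
Share of bases under H3K4me3 (left) and H3K27ac (right) peaks from the first to the last member of each cluster and in its 50 kb flanks, with all scaffolds for comparison. Bars give bases covered in both replicates and dots each replicate. H3K4me3 covers 62.9% of HOXA between its outer members and none of the flank beyond HOXD1.

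Within HOXA, H3K27ac was densest at the low paralog numbers. It covered 71.1% of the stretch of paralog groups 1 to 3, 36.5% of HOXA4 to HOXA7 and 44.2% of HOXA9 to HOXA13. The median enrichment of its peaks in the same stretches was 11.1-fold, 4.84-fold and 4.60-fold. By the mean of both replicates, the strongest H3K27ac peak of the 3 windows was not at a TSS. It lay 1.97 kb from the start of HOXA3, and had 17.1-fold in replicate 1 and 19.9-fold in replicate 2. The peak at HOXA2 had 17.7-fold and 17.1-fold, so the replicates differed in which of them was higher. Together with the peak at HOXA2 it was part of a tract of high H3K27ac over the low end of the cluster. HOXD showed no such tract, with 18.7%, 14.6% and 13.3% covered in groups 1 to 3, 4 to 8 and 9 to 13.

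**Figure D4:**
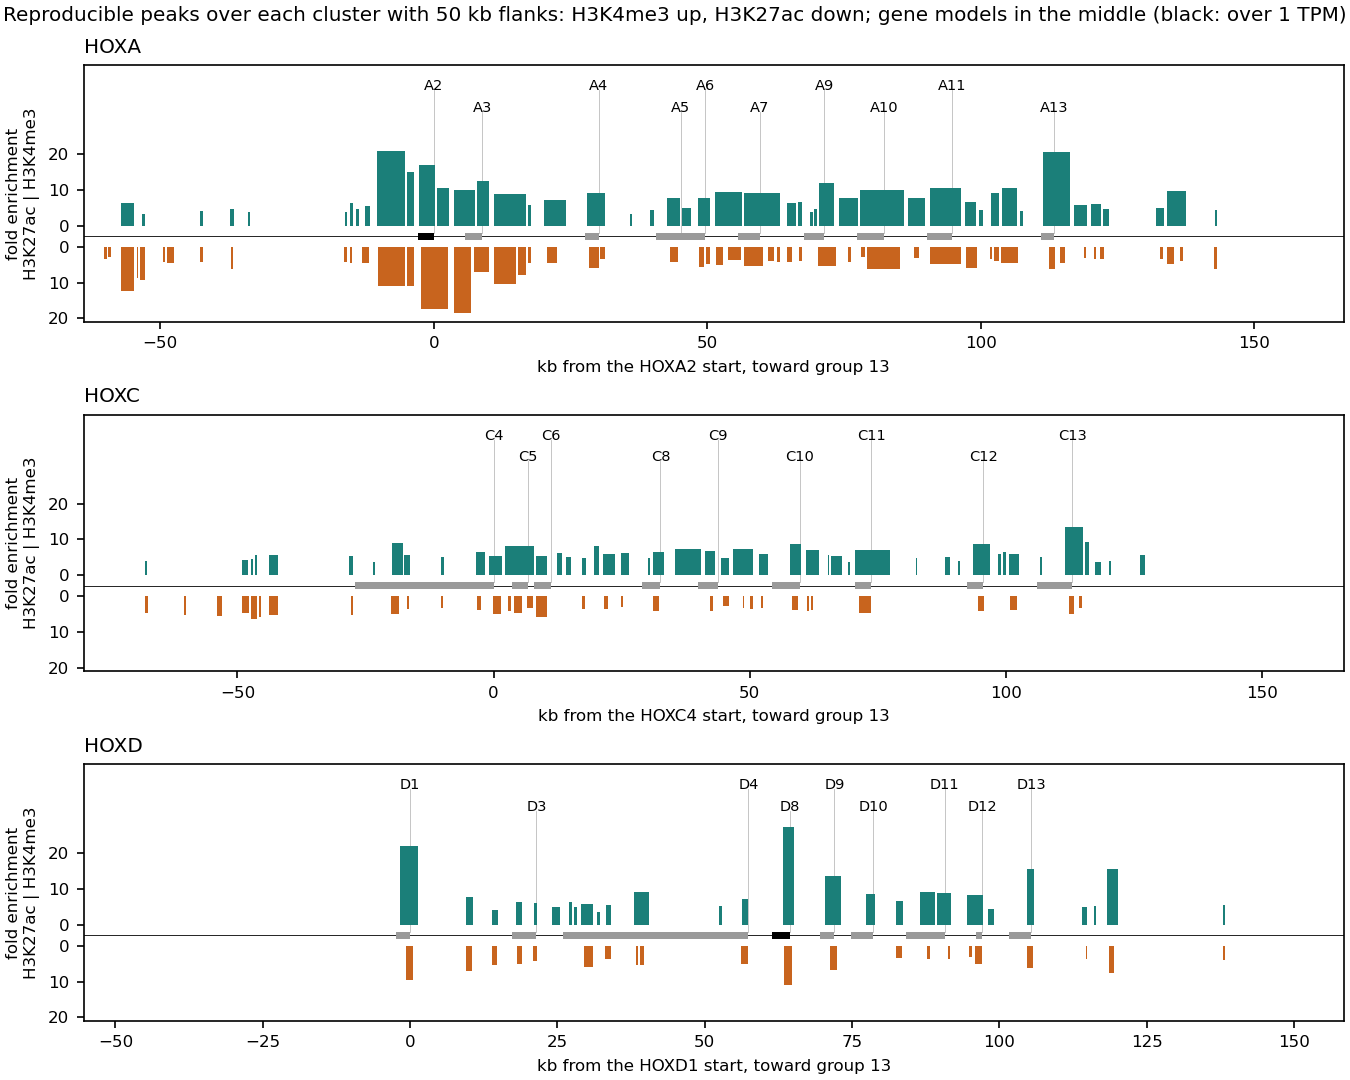
Reproducible peaks across the HOXA, HOXC and HOXD windows with 50 kb flanks, in kb from the start of HOXA2, HOXC4 or HOXD1 toward group 13. H3K4me3 enrichment is drawn upward and H3K27ac downward in fold over input, with the models of genes reported singly between them (black over 1 TPM in all libraries). H3K27ac is tallest over groups 1 to 3 of HOXA, at up to 18.5-fold, and the flank beyond HOXD1 is empty.

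H3K27ac peaks that share no base with H3K4me3 were not found inside the clusters. The paper calls enhancers from H3K27ac alone, but its double-marked elements must overlap by at least 50% of both lengths. The criterion here thus differs from the paper's. With 50 kb flanks, the windows held 47 H3K4me3 and 52 H3K27ac peaks at HOXA, 46 and 34 at HOXC, and 27 and 21 at HOXD. Of the H3K27ac peaks, 5 at HOXA, 3 at HOXC and 0 at HOXD had no base under H3K4me3. Over all scaffolds, 69124 of 148724 H3K27ac peaks had none. All 8 in the windows lay outside the members, in the flank on the side of the lowest paralog number. At HOXA they lay 47.5 to 59.8 kb from the HOXA2 start. The highest mean among them, 8.78-fold, came from 5.23-fold in replicate 1 and 12.3-fold in replicate 2. The neighbouring peaks on both sides, which overlapped H3K4me3, had the same replicate 2 value, so that mean is not a separate measure. At HOXC they lay 45.5 to 59.9 kb from the HOXC4 start, with 5.21-fold to 5.87-fold. These numbers are small and depend on the replicate, since 2 to 9 such peaks were found at HOXA in a single replicate, and with peaks required to share 50% of both lengths there were 7 at HOXC and 2 at HOXD. A stronger H3K27ac peak in the HOXA flank, 12.2-fold at 54.8 to 57.2 kb from HOXA2, overlapped H3K4me3 and was one of those neighbouring peaks.

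The flanks of HOXD differed from each other. The 50 kb beyond HOXD1 had no peak of either mark in either replicate. The 50 kb beyond HOXD13 had 5 H3K4me3 peaks, with the peak at the HOXD13 start, which crosses the border, counted among them. Another lay 12.8 kb from the HOXD13 start, with 18.7-fold in replicate 1 and 12.7-fold in replicate 2, on either side of the 14.7-fold and 16.3-fold at the HOXD13 start. It carried H3K27ac of 8.93-fold and 6.15-fold. EVX2, a homeobox gene 8.93 kb beyond the cluster, had 0 counts and an H3K4me3 peak of 5.05-fold at its start, so the peak 12.8 kb out was not the one at the start of EVX2.

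The genes next to the clusters were transcribed, apart from the EVX pair. EVX1, 65.0 kb beyond HOXA, had 0 counts and marks of 9.73-fold for H3K4me3 and 5.48-fold for H3K27ac, within the range of the HOX genes without counts. HIBADH, the next on that side, had 26.6 ± 5.71 TPM and H3K4me3 of 52.2-fold, and SKAP2 on the other side had 11.1 ± 4.03 TPM and 47.4-fold. Beside HOXD, LNPK had 14.1 ± 3.09 TPM and 79.7-fold and MTX2 21.6 ± 2.58 TPM and 71.7-fold (SD, n = 3 each). Farther out were SNX10 (2.91 TPM) and HNRNPA3 (263 TPM). The neighbours of HOXC were CBX5 (77.1 TPM), HNRNPA1 (667 TPM), CALCOCO1 (39.6 TPM) and ATP5MC2 (655 TPM), with H3K4me3 of 42.8-fold to 60.6-fold. Each neighbour with transcripts other than SNX10 had higher H3K4me3 at its start than any HOX member. Inside the clusters, LOC116419603, antisense to HOXA6 with a start next to it, had 0 counts. MIR10B also had 0 counts, in libraries made for messenger RNA, with H3K4me3 of 9.22-fold. Its 150 exon bases are all shared with HOXD4, so fragments there are ambiguous in counting and its 0 is uninformative.

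Most homeobox relatives of HOX outside the clusters also carried H3K4me3 with few or no counts. All 12 annotated relatives of HOX (EVX, GSX, CDX, MNX, GBX, MEOX and PDX genes) had H3K4me3 at the TSS. The share was 67.7% for all gene models and 83.1% for models with a symbol. Of these relatives, 2 exceeded 1 TPM in all libraries, against 56.5% of all models and 75.3% of models with a symbol. They were MEOX2 (7.37 ± 1.02 TPM) and MEOX1 (2.1 ± 0.303 TPM). The next highest was GBX2 with 0.0448 TPM. EVX1, EVX2, CDX2 and PDX1 had 0 counts, with H3K4me3 between 5.05-fold and 11.4-fold. The homeobox genes of the HOX-free head were a list chosen with earlier results of these data known. They were the opposite in transcripts, but not in the presence of an H3K4me3 peak. The enrichment of that peak ran from 4.83-fold to 76.5-fold in the head list, against 5.05-fold to 35.6-fold among the relatives. The same shares of gene models stand beside the counts of the head list. All 22 exceeded 1 TPM, with a median of 39.0 TPM and PITX1 (198 ± 40.4), MSX1 (100.2 ± 14.1) and ALX1 (75.4 ± 8.57) on top (SD, n = 3 each), and 22 of 22 had H3K4me3.

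Transcripts of most HOX protein partners were present. The TALE homeobox factors, which bind DNA together with HOX proteins, exceeded 1 TPM in 8 of 9 genes, against 56.5% of all models and 75.3% of models with a symbol, shares that also stand beside the Polycomb, Trithorax and retinoic acid counts that follow. PBX2 had 153 ± 10.7 TPM and MEIS1 69.5 ± 7.04 (SD, n = 3 each), and MEIS2 was listed at 0. Polycomb genes, whose products repress HOX genes, were above 1 TPM in 16 of 17, with RING1 at 203 ± 34.8, RBBP4 at 162 ± 31.0 and RBBP7 at 99.1 ± 8.39 TPM (SD, n = 3 each). PCGF2 was the exception with 0 counts in spite of an H3K4me3 peak of 86.4-fold at its TSS. Among Trithorax and H3K27 demethylase genes, which oppose Polycomb, KDM6A had no gene model. The annotated ones were above 1 TPM in 8 of 8, led by MEN1 (114 ± 24.9 TPM), DPY30 (89.1 ± 3.53 TPM) and KDM6B (63.2 ± 5.43 TPM; SD, n = 3 each). Retinoic acid is the signal that switches on low-numbered HOX genes in the hindbrain. Of 14 listed pathway genes, 9 had a gene model, with CYP26A1, CYP26B1 and CYP26C1 among those without one. Of the 9, 8 exceeded 1 TPM, with RARG at 299 ± 18.2, DHRS3 at 50.7 ± 9.84 and RXRB at 41.1 ± 6.60 TPM (SD, n = 3 each).

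Markers of other tissues and cell types were detected to varying extents. Their counts stand beside 56.5% of all gene models and 75.3% of those with a symbol above 1 TPM. Listed genes without a gene model are left out of these counts. Trunk and limb markers exceeded 1 TPM in 5 of 8 genes, with TBX6 (11.9 TPM), UNCX (5.70 TPM) and TBX18 (2.42 TPM) on top, and their summed level was 26.6, 25.8 and 24.7 TPM in FP1, FP2 and FP3. TBX5, a defining gene of the forelimb chosen after its value was seen, had 1, 3 and 2 counts. Pharyngeal markers exceeded 1 TPM in 5 of 6, led by NKX2-5 (102 ± 52.4 TPM), PAX1 (21.9 TPM) and FOXI3 (14.2 TPM), with GCM2 at 0, and summed to 130, 142 and 205 TPM. Motor neuron markers exceeded it in 1 of 5, ISL1 (15.5 ± 4.94 TPM), and summed to 12.9, 15.1 and 23.3 TPM. In the hindbrain and neural tube list ATOH1, which also marks the touch cells of skin, had 15.3 ± 7.89 TPM. Sensory ganglion markers exceeded 1 TPM in 4 of 4 (ISL2 at 16.6 TPM) and summed to 32, 28.5 and 34.0 TPM. Muscle markers did so in 5 of 6 (MYOD1 at 261 TPM), blood markers in 8 of 9 (ALAS2 at 195 TPM) and endothelial markers in 4 of 4 (TIE1 at 32 TPM). None of these sums had the order of libraries seen for HOXD1 except trunk and limb, where the spread was small, and endothelium, with 94.2, 73.6 and 66.3 TPM. The facial mesenchyme list had that order too, with 812, 704 and 567 TPM. Which cells carried the HOX transcripts was not tested.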

How the data were processed

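ChIP-seq was from 2 replicates per mark and RNA-seq from 3 libraries. For ChIP, the authors used cutadapt (1.9.1) for trimming, Bowtie2 (2.3.5.1) for alignment to the study's assembly, SAMtools (1.9) and Picard (2.23.1) for filtering, and MACS2 (2.1.1) for peaks over input. The deposited peak lists give fold enrichment, a ratio, and -log10 p-values and q-values. RNA was trimmed with Trimmomatic (0.39) and aligned with HISAT2 (2.21). The deposited gene counts were made with featureCounts of Subread (2.0.1) from reads over exons of Tasmanian devil gene models moved to the dunnart.

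From the counts and exon lengths, TPM was computed here in Python (3.11.15) with pandas (2.3.3), and 11 gene models whose lines were broken in the table were left out of expression. Peaks were kept at q under 0.05. Reproducible peaks were those of replicate 1 whose overlap with replicate 2, found with bedtools (2.31.1), reached 50% of one of both lengths. The interval of replicate 1 and the mean enrichment were kept. Coverage counts bases covered in both replicates. The TSS is the outermost exon end of the gene model, and the study's assembly gave all coordinates. Low counts are given with 3 counts as the limit of a count of 0. The depth of the ChIP libraries cannot be read from the peak lists used here. The scripts were tested on simulated data. No test was run, since there was a single condition, and nothing shows that libraries are independent beyond their being separate pools. Replicate numbers could not be given to the RNA columns, which are called libraries. The members and gene lists were chosen with earlier results of these data known. Named genes are all members, the 2 nearest gene models with a symbol on each side of a cluster, and, of each list, the 3 with the highest TPM with, for other cell types, those at 0; some are not reported here. Alternatives covered expression thresholds, TMM scaling with edgeR (4.0.16), peak q values, overlap, distance and flanks, and single libraries or replicates. Promoter sequences and motifs were not analysed here.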

Additional observations from a re-analysis of the deposited data

How the results depend on the processing

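No paired analysis was possible because no groups were compared and no test was run. The number of members above 1 TPM was 3, and 3 or 4 when any 1 library was left out. It was 4 at 0.5 TPM, 2 at 2 TPM and 1 at 10 TPM, with 1 member of groups 1 to 3 left at 2 and at 10 TPM, 0 of groups 4 to 8 at 10 TPM and 1 of groups 9 to 13 at 0.5 TPM. Peaks of H3K27ac, and of both marks, covered the TSS in 17 members, 4 of groups 4 to 8 and 8 of groups 9 to 13. The number of H3K27ac peaks in the HOXA window was 30 at q under 0.0001, 32 with 50% of both lengths shared and 32 without flanks, and in the HOXC window 17 at q under 0.0001 and 48 to 52 in a single replicate. H3K27ac-only peaks numbered 2 to 9 at HOXA and 3 to 5 at HOXC in a single replicate, 0 without flanks at both, and 13 and 10 with 100 kb flanks. They were 7 at HOXC and 2 at HOXD with 50% of both lengths shared, and 1 at HOXD with q under 0.0001. H3K4me3 coverage of HOXA, HOXC and HOXD was 42.4%, 26.8% and 15.4% with 50 kb flanks, 62.9%, 39.5% and 26.9% without flanks, 35.6%, 20.3% and 10.8% with 100 kb flanks, and 39.5%, 25.2% and 13.7% at q under 0.0001. Single replicates gave 47.2% to 47.6%, 33.1% to 33.9% and 17% to 18.0%. H3K27ac coverage was 30.7%, 10.7% and 8.07% with 50 kb flanks, 45.6%, 13.5% and 14.2% without, 26.6%, 9.24% and 5.90% with 100 kb flanks, and 24.5% at HOXA and 6.94% at HOXC at q under 0.0001. Single replicates gave 37.2% to 38.2%, 15.7% to 17.3% and 9.53% to 11.5%. With mitochondrial and LOC genes out of the total, HOXA2 was at 1.95 TPM and HOXC13 at 0.818, each more than 1 SD from its value. TMM scaling moved no member's TPM by more than its SD. The causes of the other changes were not tested, apart from those that follow from wider or narrower windows. Depth limits the members at 0 counts to the upper limits given above.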

Other observations

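Fold enrichments at weak peaks took a few recurring values. In replicate 2 the H3K4me3 peaks at the starts of HOXA4, HOXA6 and HOXD10 each had 9.46-fold, and in replicate 1 those at HOXC9 and HOXC10 each had 9.35-fold. At these levels, small differences between members in a single replicate cannot be resolved from the peak lists.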
